A study of Mus musculus with 12 samples.

Results

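The unfolded protein response (UPR) is described here through 9 of its regulator genes, *Ern1*, *Ern2*, *Eif2ak3*, *Atf6*, *Xbp1*, *Atf4*, *Ddit3*, *Trib3* and *Herpud1*, in stem cells (ISC) and adult enterocytes (AE) sorted from the small intestine of young and aged mice. The genes were taken by name from a table of raw read counts for 34245 genes, and all 9 passed the minimum of 10 counts in every comparison. RNA was sequenced in 12 libraries, 3 each of young ISC, aged ISC, young AE and aged AE, from untreated male C57BL/6 Lgr5-GFP mice of about 8 or 27 months. All mice, in every group, carried the Lgr5-EGFP-IRES-CreERT2 knock-in, in which the *Lgr5* promoter drives EGFP. ISC were the GFP-high cells of crypt suspensions, and AE were villus cells gated as Epcam-high and negative for CD31 and CD45. Crypt and villus suspensions were prepared separately and only the villus cells were stained with antibodies, so that cell type and handling cannot be told apart. Libraries were grouped by the cell type and age spelled in their codes, because 8 of 12 titles contradict the code they start with.

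The UPR is set off when unfolded proteins build up in the endoplasmic reticulum (ER), and it is needed most in cells that secrete or that place many proteins in their membranes. Of its sensors, IRE1 removes a short intron from the *Xbp1* mRNA, PERK phosphorylates the initiation factor eIF2α and thereby favours translation of ATF4, and ATF6 travels to the Golgi, where it is cut into an active transcription factor. Their targets raise folding capacity and degradation of misfolded proteins, and under lasting stress *Ddit3* and *Trib3* are induced. In the intestine, loss of *Xbp1* is known to harm Paneth and goblet cells. Counts per gene do not tell spliced from unspliced *Xbp1*, and they measure neither the phosphorylation of PERK nor the cleavage of ATF6, so the values below are mRNA levels and not activities of the pathway.

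Promoter sequences of 7 of the 9 genes, all except *Atf6* and *Ern2*, were read from RefSeq on GRCm38.p6. The 250 bases before each start site were searched on both strands for 4 elements through which ATF6, XBP1 or ATF4 are known to act. Matches were found in *Herpud1* alone, so its promoter is shown. It held an ERSE-II element, defined as ATTGG and CCACG with 1 base of any kind between them, which occurred in 9 of 27025 promoters of the same length (0.0333%). It also held, on the opposite strand, a C/EBP-ATF response element (TGATGNAA, N being any base), which 3.53% of promoters held. The 2 stretches lie on the plus strand at chr8:94386357-94386407 and chr8:94386297-94386344, with the matched bases in capitals, 52 to 42 and 112 to 105 bases upstream of the start site.
*Herpud1* ERSE-II: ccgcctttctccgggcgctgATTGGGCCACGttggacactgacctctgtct
*Herpud1* C/EBP-ATF element: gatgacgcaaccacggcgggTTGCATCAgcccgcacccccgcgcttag
The ERSE element (CCAAT and CCACG with 9 bases between them) and the UPRE (TGACGTGG) were found in 0.122% and 0.503% of promoters and in none of the 7 genes, which says only that these letters are not in these windows. Matches are descriptions of sequence and not evidence of binding.

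Library totals lay between 11893817 and 110794420 counts, the deepest being the young AE library Y3_AE. The sorted cells carried the markers of their labels. *Lgr5* was at 79.7 to 146 CPM (read count normalised to library size) in ISC and at 0.55 to 4.72 CPM in AE, and *Sis* was at 95.2 to 692 CPM in ISC and at 4179 to 8545 CPM in AE. The AE also held far more goblet cell mRNA, with a summed level of 12 goblet markers of 30280 to 62106 CPM against 1629 to 2513 CPM in ISC. Sums of 8 enteroendocrine markers were higher in AE too (2550 to 6623 against 237 to 711 CPM). Those of 9 Paneth markers were lower in AE (53.4 to 231 against 556 to 1677 CPM), and those of 6 tuft markers overlapped. Not every enteroendocrine marker followed its sum. Means of *Neurog3* in ISC and AE were 21.3 and 0.98 CPM in young and 24.4 and 0.073 CPM in aged mice. *Gcg* was also lower in AE in aged mice, with means of 26.9 and 9.63 CPM. The summed level of 7 B and plasma cell markers, the cells best known for high *Xbp1*, stayed between 0.11 and 2.33 CPM in all libraries. 2 young libraries carried more of the other cell type than the rest of their group: Y3_ISC had an enterocyte marker sum of 6605 CPM, and Y2_AE a stem cell marker sum of 617 CPM. With sorted bulk samples, more cells of a type and more RNA per cell cannot be told apart.

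Per kilobase of exon, the same 3 genes had the highest means in every group: *Atf4* stood first, and *Xbp1* and *Herpud1* followed with ranges that overlapped. The range of *Atf4* also overlapped that of *Herpud1* in young AE and that of *Xbp1* in aged AE. In Y2_AE *Herpud1* was above *Atf4* (100 against 97.8 CPM per kb). *Atf4* had 71.8 ± 6.49 CPM per kb in young ISC and 99.6 ± 12.3 in young AE (SD, n = 3 here and throughout). In young ISC the other 6 genes were at or below 4.59 ± 0.30 CPM per kb, the level of *Atf6*, and *Trib3* stood last at 0.49 ± 0.22, apart from its neighbour. From *Atf6* down to *Ern2*, no neighbours in that order differed beyond their ranges. In AE the lower part of the order was different: *Ddit3* followed next, with 18.3 ± 2.68 CPM per kb in young and 22.0 ± 7.93 in aged AE, and *Trib3* lay among the middle genes, with 9.80 ± 3.83 and 18.6 ± 1.48 CPM per kb. *Ern1* and *Atf6* closed the order in AE, with ranges that overlapped each other at both ages.

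**Figure D1:**
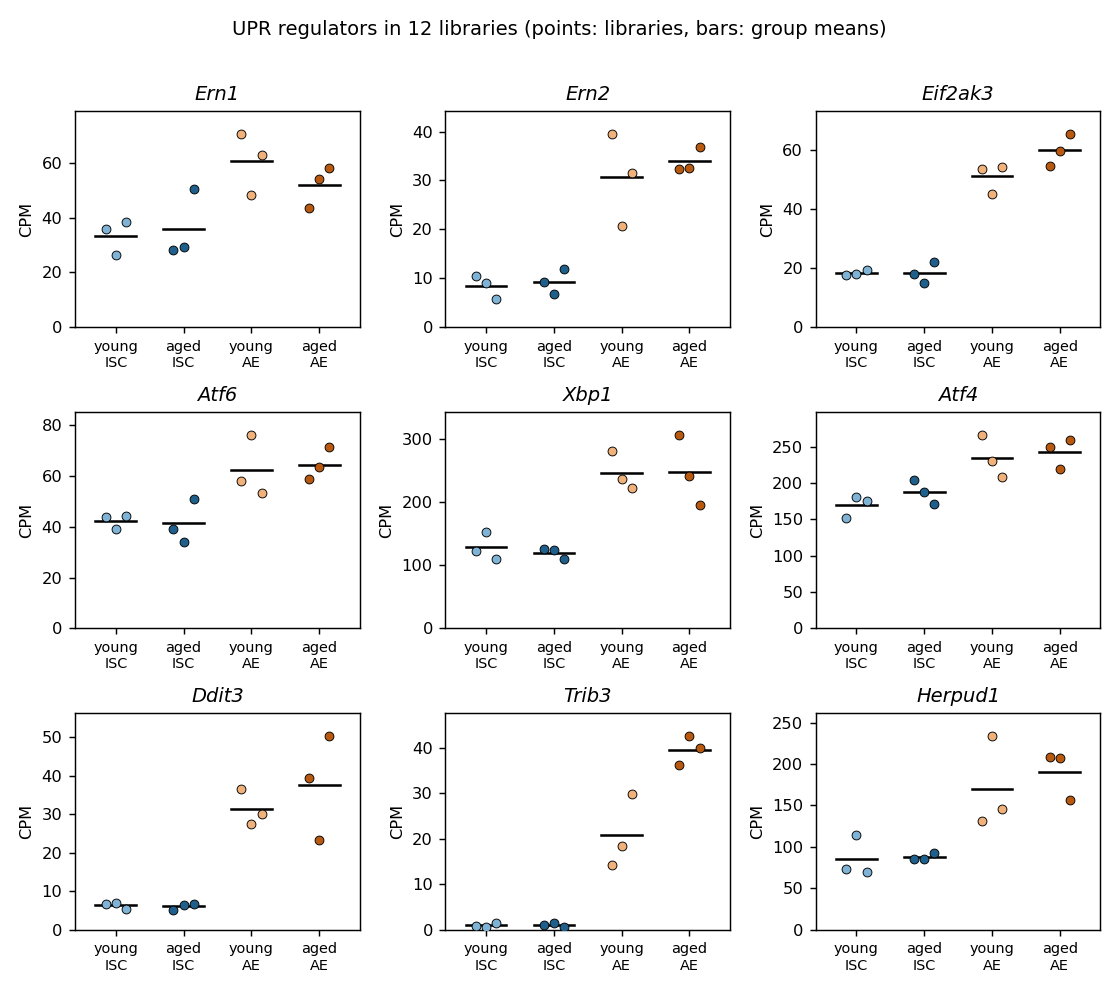
CPM (scaled by TMM, vertical axes from 0) of the 9 UPR regulators in the 12 libraries, with points for libraries and bars for means of the 3 libraries of a group. *Trib3* and *Ddit3* are near the bottom of their axes in all 6 ISC libraries, and *Trib3* in aged AE (36.3 to 42.5 CPM) lies above young AE (14.2 to 29.9 CPM).

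Which of these genes differ between stem cells and differentiated enterocytes was asked at each age. In young mice all 9 were higher in AE, with fold changes from 1.39 for *Atf4* to 19.9 for *Trib3*, and in aged mice 7 of 9, the exceptions being *Ern1* and *Atf4*. Of all genes tested, 28.9% were called higher in AE in young mice and 30.6% in aged mice (edgeR's quasi-likelihood test, Benjamini-Hochberg FDR under 0.05). None of the 9 was called lower with TMM, as 26.7% and 34.2% of all genes were. In CPM scaled by TMM, the AE libraries lay wholly above the ISC libraries for 9 genes in young and 8 in aged mice, beside 32.3% and 33.4% of all genes. Both the counts of calls and those without overlap rest on TMM scaling. *Trib3*, *Ddit3*, *Ern2* and *Eif2ak3* were called higher at both ages under every scaling run. *Herpud1*, *Xbp1*, *Ern1*, *Atf6* and *Atf4* were not called higher at either age when only library totals were used, *Atf4* being called lower in aged mice. TMM multiplied the AE library sizes by 0.72 to 0.82 and the ISC sizes by 1.26 to 1.37, and the 10 most abundant genes took 8.50 to 13.1% of AE counts against 4.17 to 6.06% of ISC counts. The median log2 fold change of all genes was 0.15 in young and -0.13 in aged mice with TMM, and -0.56 and -0.91 with totals alone. Of all calls, 51.9% in young and 47.2% in aged mice were higher in AE with TMM, against 26.2% and 24.5% with totals alone.

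**Figure D2:**
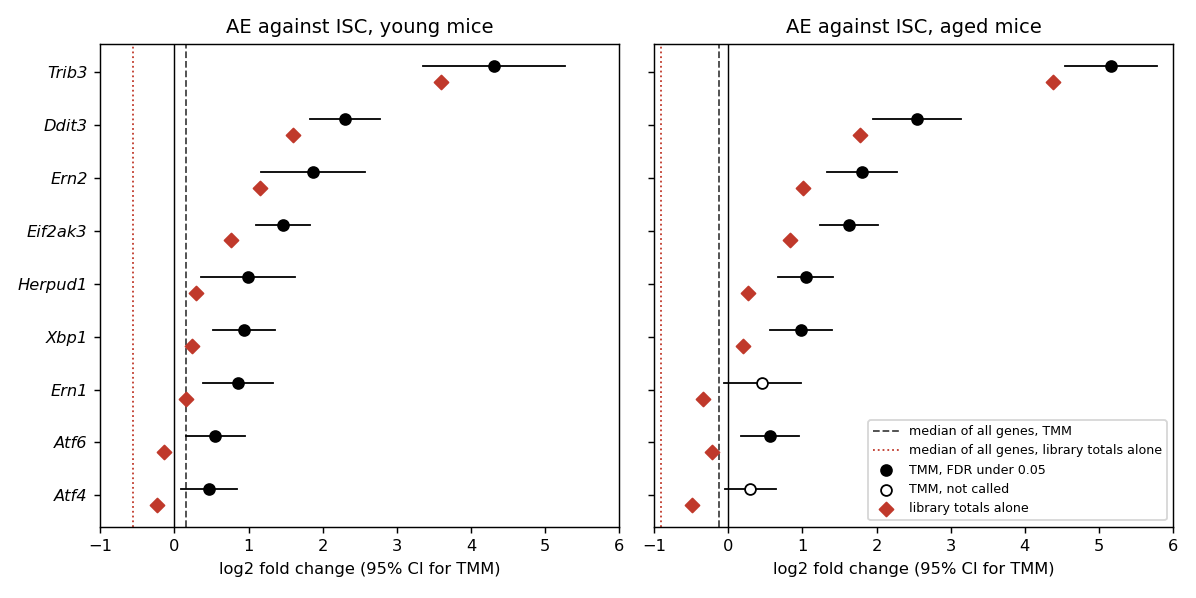
Log2 fold change of AE against ISC for the 9 UPR regulators in young (left) and aged mice (right). Circles are estimates with TMM and their 95% confidence intervals, filled where the FDR was under 0.05, diamonds are estimates with library totals alone, and vertical lines mark the medians of all genes (0.15 and -0.13 with TMM, -0.56 and -0.91 with totals alone). All 9 genes lie right of the median of all genes under both scalings at both ages.

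The sensors come first. *Eif2ak3*, which encodes PERK (chr6:70844515-70905245), was at 17.8, 18.1 and 19.5 CPM in young ISC and at 45.2, 53.7 and 54.2 CPM in young AE. In aged mice it was at 15.1, 18.0 and 22.1 CPM in ISC and at 54.7, 59.8 and 65.4 CPM in AE. The 6 ISC libraries lay close together and far below all 6 AE libraries. The log2 fold change of AE against ISC was 1.47 ± 0.16 (SE) in young mice and 1.63 ± 0.18 in aged mice, with adjusted p of 2.12e-04 and 1.80e-05 by edgeR's quasi-likelihood test. An unnamed antisense gene model, Gm43292, overlaps 8.05% of the exon bases of *Eif2ak3*, and reads from both strands cannot be told apart if strand was not used in counting.

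*Ern1*, the IRE1α found in most tissues (chr11:106394650-106487852), was at 26.2, 35.8 and 38.2 CPM in young ISC and at 48.3, 63.0 and 70.5 CPM in young AE. With TMM the young groups did not overlap, and *Ern1* was 1.81-fold higher in AE (95% confidence interval 1.31 to 2.52, adjusted p = 0.00796). In aged mice it was at 28.1, 29.3 and 50.5 CPM in ISC and at 43.7, 54.0 and 58.0 CPM in AE. Here 1 aged ISC library, O5_ISC, lay within the AE range, and the log2 difference of 0.46 ± 0.23 did not pass (adjusted p = 0.108). With the library code as a replicate block the same difference was 0.50 and passed, with adjusted p = 0.0203, and without single libraries it ranged from 0.31 without O1_ISC (adjusted p = 0.303) to 0.77 without O5_ISC (adjusted p = 0.00306), the single omission that made it pass.

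*Ern2*, the IRE1β restricted to gut and airway epithelium and known from goblet cells (chr7:122169893-122186207), differed more than *Ern1*. It was at 5.73, 9.08 and 10.4 CPM in young ISC and at 20.7, 31.6 and 39.5 CPM in young AE. Aged ISC held 6.69, 9.17 and 11.8 CPM and aged AE 32.4, 32.5 and 36.8 CPM. No AE library came near the ISC range, and the fold changes were 3.65 in young and 3.48 in aged mice (adjusted p = 0.00127 and 3.38e-05). Within a library the ratio of *Ern2* to *Ern1*, both as CPM per kb, does not depend on scaling: it was 0.41 to 0.95 in all 6 ISC libraries and 1.18 to 2.05 in all 6 AE libraries. As CPM per kb, *Ern2* thus stood below *Ern1* in every ISC library and above it in every AE library. That order rests on the exon lengths used, 2964 bases for *Ern2* and 8173 for *Ern1*. In CPM *Ern2* was below *Ern1* in every library, while the higher ratio in AE does not depend on length. The goblet markers *Muc2*, *Agr2* and *Spdef* moved with this difference, by unlike amounts. *Muc2* was at 110 to 124 CPM in the means of both ISC groups and, in AE, at 3312 ± 1435 CPM (young) and 3778 ± 142 CPM (aged). Means of *Agr2* in ISC and AE were 138 and 445 CPM in young and 135 and 288 CPM in aged mice. Those of *Spdef* were 12.2 and 38.4 CPM in young and 16.9 and 40.5 CPM in aged mice. The part of goblet markers in the level of *Ern2* was not tested.

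*Atf6*, the third sensor (chr1:170704674-170867771), was at 39.2, 43.6 and 44.3 CPM in young ISC and at 53.1, 57.7 and 75.9 CPM in young AE. Aged ISC held 34.1, 39.1 and 50.8 CPM and aged AE 58.6, 63.2 and 71.1 CPM. With TMM the groups did not overlap at either age, but the difference was small. The log2 fold changes were 0.55 ± 0.18 and 0.57 ± 0.18, with adjusted p of 0.0259 and 0.0164. The difference reversed to -0.14 in young and -0.23 in aged mice with library totals alone, where neither passed, and in young mice it missed the threshold with upper-quartile scaling (0.43, adjusted p = 0.0666). The call was lost at both ages when single libraries were left out. In young mice it was lost in 4 of 6 cases, without Y1_ISC, Y2_ISC or Y3_ISC (0.50 to 0.59, adjusted p = 0.0557 to 0.0949) and without Y2_AE (0.29, adjusted p = 0.172). In aged mice it was lost in 3 of 6, without O1_ISC, O3_ISC or O5_AE (0.45 to 0.53, adjusted p = 0.0551 to 0.0622).
Of the sensors, *Ern2* and *Eif2ak3* had the largest log2 fold changes at both ages, and the smallest were those of *Atf6* in young mice and of *Ern1*, which was not called, in aged mice. The ratio of *Eif2ak3* to *Atf6* as CPM per kb was 0.62 to 0.71 in the 6 ISC libraries and 0.91 to 1.56 in the 6 AE libraries.

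Next are the transcription factors that the sensors control. *Xbp1* (chr11:5520659-5525893) was at 109, 123 and 152 CPM in young ISC and at 222, 237 and 280 CPM in young AE. Aged ISC held 110, 124 and 125 CPM and aged AE 195, 241 and 306 CPM. With TMM all AE libraries lay above all ISC libraries, with fold changes of 1.92 and 1.97 and adjusted p of 0.00282 and 0.00104. Scaled by library totals alone, the log2 differences were 0.24 and 0.20 in place of 0.94 and 0.97 and did not pass.

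*Atf4* (chr15:80255184-80257540) was at 152, 175 and 181 CPM in young ISC and at 208, 231 and 266 CPM in young AE. Aged ISC held 171, 188 and 204 CPM and aged AE 219, 250 and 259 CPM. With TMM the groups did not overlap, but this was the smallest difference of the 9 at both ages. The log2 fold changes were 0.47 ± 0.17 (adjusted p = 0.0386) in young and 0.30 ± 0.15 (adjusted p = 0.116) in aged mice. The direction depended on the scaling: with library totals alone *Atf4* was at -0.23 in young mice, which did not pass, and at -0.48 in aged mice, which passed as lower (adjusted p = 0.0165). The call in young mice was also lost with upper-quartile scaling (0.35, adjusted p = 0.106) and without any single library (0.34 to 0.52). In aged mice DESeq2 called it higher (0.38, adjusted p = 0.0251), as did 1 fit on all 4 groups (0.37, adjusted p = 0.0439).

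*Ddit3*, which encodes CHOP and is induced by ATF4 (chr10:127290774-127296288), was scarce in ISC. Young ISC held 5.50, 6.56 and 6.98 CPM and aged ISC 5.22, 6.42 and 6.66 CPM. Young AE held 27.5, 29.9 and 36.4 CPM and aged AE 23.2, 39.5 and 50.2 CPM. Every AE library was far above every ISC library. The fold changes were 4.92 (95% confidence interval 3.55 to 6.82) in young and 5.85 (3.87 to 8.84) in aged mice, with adjusted p of 1.17e-04 and 1.44e-05. The log2 differences of 2.30 and 2.55 became 1.59 and 1.77 with library totals alone and still passed. *Ddit3* shares 3.97% of its exon bases with the antisense gene *Mars*.

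*Trib3*, a pseudokinase induced by ATF4 and CHOP that dampens their output (chr2:152337422-152344032), had the largest difference of the 9 at both ages. Young ISC held 12, 14 and 28 counts, or 0.68, 0.89 and 1.57 CPM, and aged ISC 15, 29 and 35 counts, or 0.67, 1.57 and 0.98 CPM. Young AE held 14.2, 18.4 and 29.9 CPM and aged AE 36.3, 40.0 and 42.5 CPM. The counts in ISC were all above 3, the limit of detection used, but so low that the fold is less certain than the call: it was 19.9 (95% confidence interval 10.2 to 38.6) in young and 35.8 (23.3 to 54.8) in aged mice, with adjusted p of 1.56e-04 and 2.45e-07. In young mice 94% and in aged mice 97.3% of all genes had a smaller log2 fold change than *Trib3*.
Ratios within a library gave the same picture of *Atf4*, *Ddit3* and *Trib3* mRNA without any scaling. The ratio of *Ddit3* to *Atf4*, as CPM per kb, was 0.035 to 0.059 in the 6 ISC libraries and 0.15 to 0.27 in the 6 AE libraries, with no overlap. That of *Trib3* to *Ddit3* was 0.079 to 0.23 in ISC and 0.31 to 1.48 in AE. *Ddit3* thus differed more between cell types than *Atf4*, whose product acts on it, and *Trib3* more than *Ddit3*.

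*Herpud1*, the protein of the ER membrane that assembles the degradation complex and whose promoter is printed above (chr8:94386438-94395377), was at 69.3, 73.7 and 114 CPM in young ISC and at 132, 145 and 233 CPM in young AE. Aged ISC held 85.4, 85.8 and 92.7 CPM and aged AE 156, 207 and 209 CPM. It was 1.98-fold higher in young AE (adjusted p = 0.0158) and 2.06-fold higher in aged AE (adjusted p = 2.80e-04). The young call was lost without Y2_AE, which had the 233 CPM (0.60 in place of 0.99, adjusted p = 0.0708), and also without Y1_ISC (0.89, adjusted p = 0.0654) or Y3_ISC (0.86, adjusted p = 0.0557). Without Y2_AE and Y3_ISC together it was 0.51 (adjusted p = 0.162), *Atf4* and *Atf6* were not called either, and 6 of 9 genes were called higher. Scaled by library totals alone, *Herpud1* was at 0.29 in young and 0.26 in aged mice and did not pass.

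Genes around the 9 regulators were counted in 4 lists. ER-associated degradation (ERAD), the export of misfolded proteins to the proteasome, was the list with most genes higher in AE: 12 of 15 were called higher and 0 lower in young mice, and 11 of 15 and 0 in aged mice. Over all genes 28.9% and 30.6% were higher and 26.7% and 34.2% lower in young and aged mice. The ERAD median log2 fold change was 0.83 in young and 1.00 in aged mice, beside 0.15 and -0.13 for all genes. The largest rises were those of *Edem1*, a lectin that extracts glycoproteins for degradation, at 1.71 ± 0.15 and 1.90 ± 0.16, and of *Edem3* at 1.63 ± 0.14 and 1.74 ± 0.18 in young and aged mice. *Sel1l* and *Syvn1*, the core of the ubiquitin ligase to which HERPUD1 binds, were at 1.20 ± 0.14 and 1.17 ± 0.28 in young mice. *Vcp*, the ATPase that pulls substrates from the membrane, was not called at either age (-0.11 and -0.13). Without Y2_AE and Y3_ISC together 8 were higher and 1 lower in young mice, and 1 was lower without Y3_ISC alone or, in aged mice, without O3_ISC. Under library totals 5 ERAD genes were higher and 2 lower in young mice, and 4 and 3 in aged mice.

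Of the ER chaperones and folding enzymes, 6 of 20 were called higher and 1 lower in AE in young mice, and 6 higher and 4 lower in aged mice. The count of higher genes is near the 28.9% and 30.6% of all genes, and the count of lower genes is below the 26.7% and 34.2%. Without Y2_AE 2 were lower in young mice. *P4hb*, a protein disulfide isomerase that also serves in lipoprotein assembly, went from 1010 to 4259 CPM in young mice (log2 fold change 2.07 ± 0.30) and *Ero1lb*, an oxidase of these isomerases, from 8.49 to 31.7 CPM (1.90 ± 0.19). *Dnajb9*, a cochaperone induced through XBP1, rose by 1.70 ± 0.26. The main ER chaperone *Hspa5* (BiP), with means of 622 and 889 CPM in ISC and AE of young mice, was not called at either age (0.51 ± 0.30, adjusted p = 0.174, and 0.27 ± 0.20, adjusted p = 0.258). *Hsp90b1*, *Calr*, *Canx* and *Hyou1* were not called at either age, and *Sil1*, the exchange factor of BiP, was lower in AE at both (-0.98 ± 0.18 and -1.49 ± 0.19). Under library totals the counts were 3 higher and 4 lower in young and 4 higher and 12 lower in aged mice.

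Of 21 targets of the PERK-ATF4 pathway, 4 were called higher and 8 lower in AE in young mice, and 5 higher and 8 lower in aged mice, beside 28.9% and 30.6% of all genes higher and 26.7% and 34.2% lower. Without Y2_AE 2 were higher in young mice. Among the lower genes *Phgdh*, which opens serine synthesis, went from 14.9 to 0.21 CPM in young mice (-6.51 ± 0.63), and *Slc7a5*, an amino acid transporter, from 31.1 to 4.30 CPM (-2.93 ± 0.45). *Asns*, the asparagine synthetase often read as a marker of ATF4, was lower at -1.50 ± 0.28 and -1.42 ± 0.23. Among the higher ones were *Slc3a2*, the partner chain of many amino acid transporters (2.18 ± 0.18 and 2.49 ± 0.18), and *Vldlr* (1.99 ± 0.37 and 1.34 ± 0.32). *Chac1* was called higher in aged mice (adjusted p = 0.0211) and not in young mice (adjusted p = 0.192), but its mean of 0.069 CPM in aged ISC was below the level of 3 counts in a library. *Ppp1r15a* (GADD34) and *Atf3* were not called at either age. The proliferation markers moved with the genes that were lower, with sums of 1195 to 1568 CPM in ISC and 76.7 to 375 CPM in AE, and their part was not tested. Under library totals 2 were higher and 12 lower in young mice and 2 and 13 in aged mice.

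Signalling partners and related factors gave 10 higher and 4 lower of 20 in young mice, and 9 and 6 in aged mice, beside 28.9% and 30.6% of all genes higher and 26.7% and 34.2% lower. The largest rises were in factors of the CREB3 family, membrane-bound relatives of ATF6: *Creb3l3*, known from liver and gut lipid metabolism, went from 73.3 to 1011 CPM in young mice (3.78 ± 0.78), and *Creb3l2* went from 13.0 to 144 CPM (3.47 ± 0.23). *Tmbim6*, an inhibitor of IRE1, was higher by 1.91 ± 0.25 and 2.22 ± 0.25. Among the other eIF2α kinases, *Eif2ak1* (HRI) and *Eif2ak2* (PKR) were higher in AE as *Eif2ak3* was, and *Eif2ak4* (GCN2) was lower at -1.42 ± 0.22 and -1.54 ± 0.23. *Rtcb*, the ligase that joins the cut ends of *Xbp1* mRNA, was lower at -1.05 ± 0.15 and -1.43 ± 0.17. *Mbtps2*, a protease that activates ATF6, was lower at -0.60 ± 0.20 and -0.91 ± 0.18. Under library totals 5 were higher and 9 lower in young and 6 and 10 in aged mice.

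**Figure D3:**
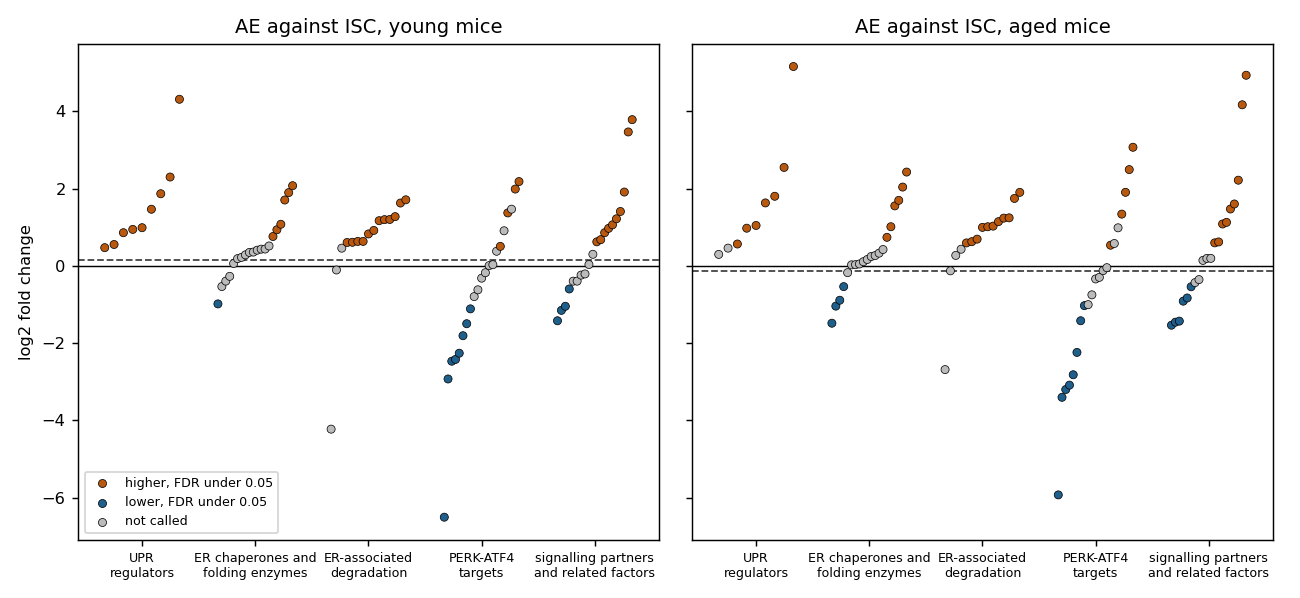
Log2 fold change of AE against ISC (vertical axis) for the 9 UPR regulators and the tested genes of 4 related lists, in young (left) and aged mice (right), with TMM scaling. Each point is a gene, sorted within its list and coloured by its call, and the dashed line marks the median of all genes tested. ERAD genes lie mostly above 0 (12 of 15 called higher in young mice), and PERK-ATF4 targets lie on both sides of it (4 called higher and 8 lower).

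Whether aging changes these genes was asked within each cell type. None of the 9 regulators was called in ISC or in AE, where 0% of all genes tested were called in either comparison by edgeR's quasi-likelihood test. At an unadjusted p under 0.05 there were 784 genes in ISC (5.04%) and 779 in AE (4.79%). DESeq2 called 58 genes in ISC and 18 in AE, and none of the 9 was among them. In ISC the aged and young libraries overlapped for all 9 genes, as they did for all but 8.86% of genes tested, and the log2 fold changes lay between -0.09 for *Xbp1* and 0.15 for *Atf4*. Their 95% confidence intervals bound what could have been missed: that of *Xbp1* ran from -0.45 to 0.26, that of *Atf4* from -0.16 to 0.47, and that of *Trib3*, with its few counts, from -1.06 to 1.05.

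In AE 8 of 9 estimates were above 0, with a median of 0.17 beside -0.04 for all genes. For *Trib3* the mean of young AE was 20.8 ± 8.13 CPM and that of aged AE 39.6 ± 3.14 CPM. All 3 aged libraries were above all 3 young ones, and the log2 fold change was 0.92 ± 0.27, a 1.89-fold difference (95% confidence interval 1.25 to 2.88). It did not pass the correction over 16265 genes (unadjusted p = 0.00734, adjusted p = 0.844). *Eif2ak3* was the other gene without overlap in CPM scaled by TMM, at 51.0 ± 5.02 and 60.0 ± 5.37 CPM (0.25 ± 0.15, adjusted p = 0.844). Its separation was narrow and rests on that scaling, with 54.2 CPM in the highest young and 54.7 CPM in the lowest aged library. Over all genes 4.01% were higher in aged AE without overlap. *Ddit3* (0.28 ± 0.26), *Herpud1* (0.18 ± 0.24) and *Ern2* (0.17 ± 0.22) overlapped, and *Ern1* was the gene below 0 (-0.20 ± 0.18). Stem cell, proliferation and Paneth cell markers were mostly below 0 in aged AE (7 of 8, 8 of 8 and 8 of 9), with median log2 fold changes of -1.01, -1.35 and -1.36 and 0 genes called, and their part in these values was not tested.

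The difference of the age effect between AE and ISC was tested over all 12 libraries. None of the 9 genes was called, and 0.00575% of all genes were, 1 gene, or 19 genes with the library code as a replicate block. *Trib3* had the largest estimate, 0.92 ± 0.52 higher in AE (unadjusted p = 0.0987, adjusted p = 1.00), with a 95% confidence interval from -0.20 to 2.03. The others lay between -0.33 for *Ern1* and 0.33 for *Ddit3*. An effect of age on *Trib3* that is particular to AE was therefore not shown.

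**Figure D4:**
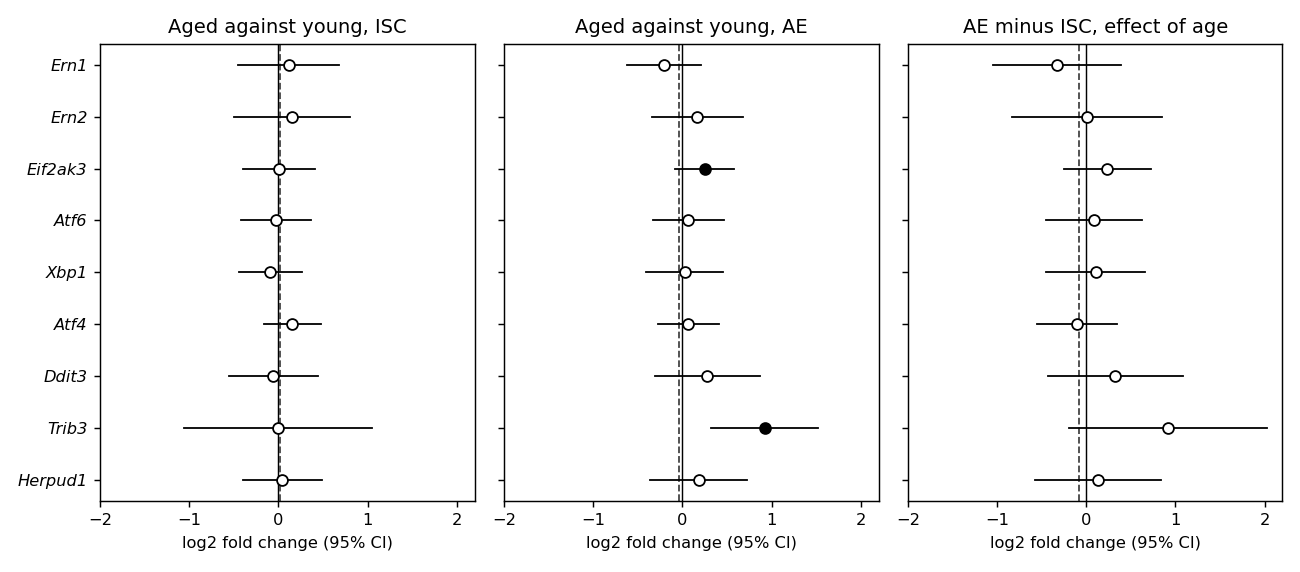
Log2 fold change by age for the 9 UPR regulators in ISC (left) and AE (middle), and the difference of both effects (right), with 95% confidence intervals. Filled circles mark the genes whose aged and young libraries do not overlap in CPM scaled by TMM, *Trib3* (0.92) and *Eif2ak3* (0.25, by a narrow margin) in AE. Dashed lines mark the median of all genes tested. No gene had an FDR under 0.05.

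Of the related lists, none had a gene called by age in either cell type. ER chaperones and folding enzymes leaned one way: 17 of 20 were below 0 in aged ISC, with a median log2 fold change of -0.30 beside 0.01 for all genes, and 16 of 20 in aged AE, with a median of -0.36 beside -0.04. *Hspa5* went from a mean of 622 CPM in young to 453 CPM in aged ISC (-0.45 ± 0.19), and in AE from 889 to 574 CPM (-0.61 ± 0.27). *Hyou1*, an HSP70-like chaperone of the ER, was at -0.54 ± 0.16 in ISC and -0.81 ± 0.22 in AE, and its libraries did not overlap in either. In ISC 8 of 20 chaperones were lower in aged mice without overlap, beside 4.44% of all genes, and in AE 1 of 20, beside 6.94%. At an unadjusted p under 0.05 there were 7 of 20 in ISC and 4 of 20 in AE, beside 5.04% and 4.79% of all genes. The lowest adjusted p were 0.881 and 0.844. All 20 genes were measured in the same 3 libraries of each group, so they are not independent observations of age. Their counts beside the shares of all genes are a description and no test of the list, which was chosen with earlier results of these data known. Of all genes, 52.2% in ISC and 45.3% in AE were above 0 by age. Under the other scalings, DESeq2, the filters and 1 fit on all 4 groups, 17 of 20 were below 0 in ISC and 16 to 18 of 20 in AE. Enterocyte markers moved in the same direction in ISC, with 10 of 10 below 0 and sums of 2648 to 6605 CPM in young and 1100 to 3570 CPM in aged ISC, and their part was not tested. The medians of the other 3 pathway lists by age lay between -0.08 and 0.10.

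**Figure D5:**
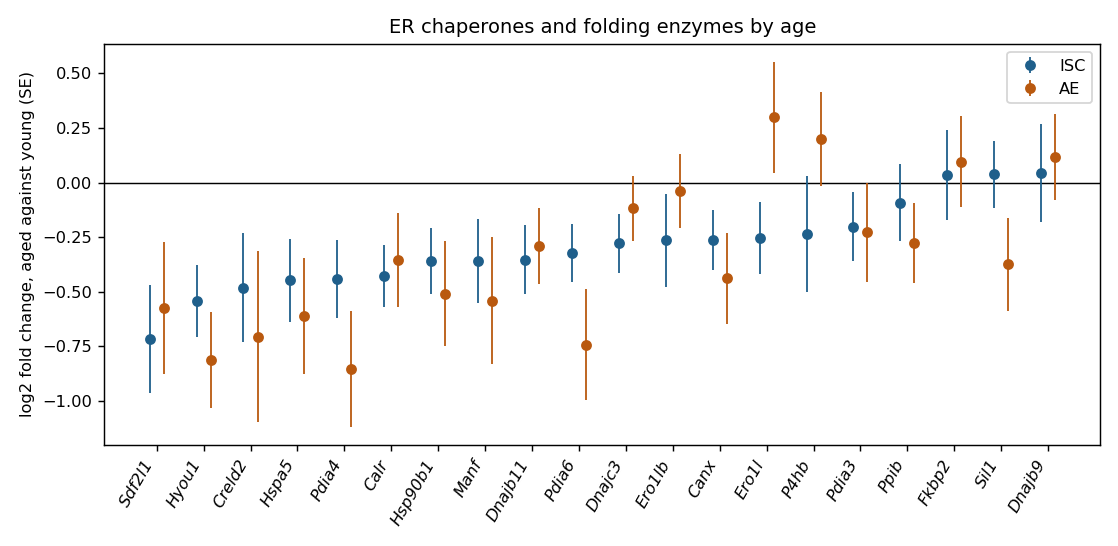
Log2 fold change of aged against young mice (vertical axis, bars are SE) for 20 ER chaperones and folding enzymes in ISC and AE, sorted by the value in ISC. Of these, 17 lie below 0 in ISC and 16 in AE, and none had an FDR under 0.05.

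The genes whose levels followed each regulator most closely were sought among 10551 genes, by the smaller of the Pearson coefficients over the 6 ISC and the 6 AE libraries. The closest were *Mier2* for *Ern2* (0.96), *Wrap73* for *Xbp1* (0.95), *Atp5l* for *Atf4* (0.93), *Gal3st2* for *Trib3* (0.92), *Cipc* for *Herpud1* (0.91), *A830080D01Rik* for *Eif2ak3* (0.90), *Cers6* for *Atf6* (0.90), *Txlng* for *Ern1* (0.89) and *Phip* for *Ddit3* (0.87). Each of these genes was picked as the highest of 10551, with 6 libraries a cell type that differ in depth. High coefficients can arise from that choice alone, so they are descriptions. Among pairs of the regulators themselves, the highest coefficient over the ISC libraries was that of *Eif2ak3* and *Atf6*, at 0.94, with -0.12 over the AE libraries. The lowest over the AE libraries was that of *Ern1* and *Herpud1*, at -0.90, with -0.35 over the ISC libraries.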

How the data were processed

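The authors trimmed reads with Trim Galore 0.4.4, mapped them to GRCm38 with HISAT2 2.1.0, and counted unique reads over merged exons of each gene in SeqMonk. The deposited values are raw counts. The library kit keeps strand, but whether the gene counts used it, and the annotation release, are not given in the sources used here. A deposited table of differentially expressed genes (log2 values and -log10 FDR of the authors' comparisons) was not used.

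Genes with at least 10 counts over the libraries compared entered edgeR 4.0.16 (TMM, robust quasi-likelihood test, R 4.3.3), with Benjamini-Hochberg adjustment over all genes and a threshold of 0.05. CPM used TMM factors over 12 libraries, and CPM per kb the merged exon length of GENCODE M21. Replicate errors are SD, and those of fold changes SE. The methods list 3 mice in each age cohort, but no source ties a library to a mouse, so p-values measure the spread between these libraries. The fit was tested on simulated data. At each age 3 codes are common to ISC and AE, and libraries of the same code deviated together (correlations over 10560 genes of 0.23 to 0.49 in 6 of 6 pairs, -0.50 to 0.22 in 12 pairs of different codes), so the code also served as replicate block in another fit. Other alternatives were DESeq2 1.42.0, RLE and upper-quartile scaling, other filters, 1 fit on all 4 groups and leaving out each library. Library totals alone, and leaving out Y3_ISC and Y2_AE together, were chosen after seeing the data.

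The members, lists, markers and motifs were chosen with earlier results of these data known. Named were the 9 members, called genes of the lists and examples of their roles, the genes most like a member, and markers beside a result. *Muc2* has several rows, of which the deepest was used. Protein sequences were not used here.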

Additional observations from a re-analysis of the deposited data

How the results depend on the processing

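Values are log2 fold changes unless they are counts. Of the UPR regulators, 9 were called higher in AE in young and 7 in aged mice. Leaving out single libraries gave 6 to 8 at both ages. Scaling by library totals alone gave 4 and 4, with 1 called lower in aged mice, and RLE, upper-quartile scaling, DESeq2, the filters and the replicate block left the counts within 1.5 times. The replicate block changed 1 call among the 9 genes, that of *Ern1* in aged mice. It raised the genes called for the difference of age effects from 1 to 19, none of them a UPR regulator. By age, the genes called in ISC were 58 with DESeq2, 1 with no filter, 3 with 1 fit on all 4 groups and 0 to 1 without single libraries, and in AE 18 with DESeq2, 2 with that fit and 0 to 1. The difference of age effects had 43 with DESeq2, 0 with library totals alone and 0 to 3 without single libraries. The low counts of *Trib3* in ISC limit the precision of its fold. The causes of these shifts were not tested.

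With library totals alone the direction reversed for *Atf4* of AE against ISC (-0.23 young, -0.48 aged), *Atf6* (-0.14, -0.23) and *Ern1* in aged mice (-0.34). By age it reversed in AE for *Atf4* (-0.069), *Atf6* (-0.072) and *Xbp1* (-0.10), in ISC for *Atf6* (0.0091) and *Trib3* (0.026), and for the difference of age effects of *Atf6* (-0.081), *Ern2* (-0.14), *Herpud1* (-0.028) and *Xbp1* (-0.041). Other reversals were of values near 0: *Eif2ak3* by age in ISC with DESeq2 (-0.00080), RLE (-0.00067) and 1 fit on all 4 groups (-0.0034), *Ern2* in the difference of age effects with upper-quartile scaling (-0.0040), and *Trib3* by age in ISC with DESeq2 (0.024), upper-quartile scaling (0.0094) and the filter at 1 CPM (0.00077).

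Leaving out single libraries also turned uncalled values by age. In ISC the ranges were -0.20 to 0.089 for *Atf6*, -0.15 to 0.053 for *Ddit3*, -0.14 to 0.12 for *Eif2ak3*, -0.21 to 0.26 for *Ern1*, -0.062 to 0.33 for *Ern2*, -0.087 to 0.31 for *Herpud1*, -0.31 to 0.42 for *Trib3* and -0.19 to 0.053 for *Xbp1*. In AE they were -0.0086 to 0.16 for *Atf4*, -0.032 to 0.24 for *Atf6*, -0.038 to 0.38 for *Ern2* and -0.15 to 0.17 for *Xbp1*. For the difference of age effects they were -0.062 to 0.26 for *Atf6*, -0.23 to 0.22 for *Ern2*, -0.13 to 0.39 for *Herpud1* and -0.12 to 0.21 for *Xbp1*. *Trib3* in aged AE stayed above young AE in each (0.72 to 1.30).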
